A study of Rattus norvegicus with 24 samples.

Results

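The genes described here encode 9 scaffold proteins of the postsynaptic density, the protein layer beneath the membrane of excitatory synapses. They are Shank1, Shank2, Shank3, Dlg2, Dlg3, Dlg4, Dlgap1, Dlgap3 and Homer2, and each was found by its gene name as 1 row in every table, so 9 of the 32883 reference genes were followed. RNA-Seq had been run on the frontal cortex of 24 adult male Sprague-Dawley rats that inhaled an aerosol of tungsten particles or served as controls, with 1 library per rat. The Control group (0 mg/m3, libraries 49 to 56), the Low group (5 mg/m3, libraries 57 to 64) and the High group (80 mg/m3, libraries 65 to 72) held 8 libraries each. The labels give the same inhalation treatment for all 3 groups and separate them by concentration alone, and in one place they call the source cell lines of the frontal cortex, where the tissue label and the study name the tissue itself.

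Scaffolds of the postsynaptic density hold glutamate receptors opposite the site of transmitter release and tie them to the signalling proteins and the actin skeleton of the dendritic spine. The Dlg proteins (PSD-95 and its relatives) sit closest to the membrane and bind receptor tails with their PDZ domains. The Dlgap proteins bind the Dlg proteins from below and in turn bind the Shank proteins, which form the deeper layer and meet the Homer proteins, the link to metabotropic glutamate receptors and to calcium stores. SHANK genes are known for their association with autism spectrum disorder.

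Expression was read from the coverage column, the mean read depth over a gene's exons. It was divided by the library's sum over reference genes and multiplied by 1000000, and is called scaled coverage below. It is a depth per base, as FPKM is, but the columns place some genes differently, as given below. The sum of reference coverage, the measure of depth that the tables give, was 1668573 to 2822488 in the Control libraries, 1770356 to 2665357 in those of High and 1639554 to 3069530 in those of Low. A feature of the tables moved with the groups. The Control tables held 46334 to 66427 assembled loci, that is loci built from the reads and absent from the annotation, except library 56 with 159573. The High tables held 50235 to 64010 and the Low tables held 0. Assembled loci carried a further 1208120 to 2334390 of coverage in the Control libraries, 1269590 to 1864810 in those of High and 0 in those of Low. The reference sum used for scaling leaves this coverage out. The Low group and this difference in how its tables were made cannot be told apart.

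In Control, Dlg4 had the highest level of the 9 genes, with a median scaled coverage of 476, followed by Dlgap3 at 207, Shank1 at 153, Dlg2 at 97.0, Shank3 at 87.2, Dlg3 at 58.0, Shank2 at 35.4, Homer2 at 9.71 and Dlgap1 at 9.07. The ranges of Dlg4 and Dlgap3, of Dlg3 and Shank2 and of Shank2 and Homer2 did not overlap. All the other neighbours in this order overlapped, and Dlg2 exceeded Shank3 in 6 of 8 Control libraries and Homer2 exceeded Dlgap1 in 3 of 8. The order in High differed only at its end, where Dlgap1 (median 9.0) and Homer2 (8.58) changed places. In Low, Shank2 dropped below Homer2, with medians of 9.04 and 11.4. The place of Dlgap1 depended on the column, since its median in Control on the FPKM column, scaled in the same way, was 85.2, between Dlg2 at 91.9 and Dlg3 at 77.9.

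**Figure D1:**
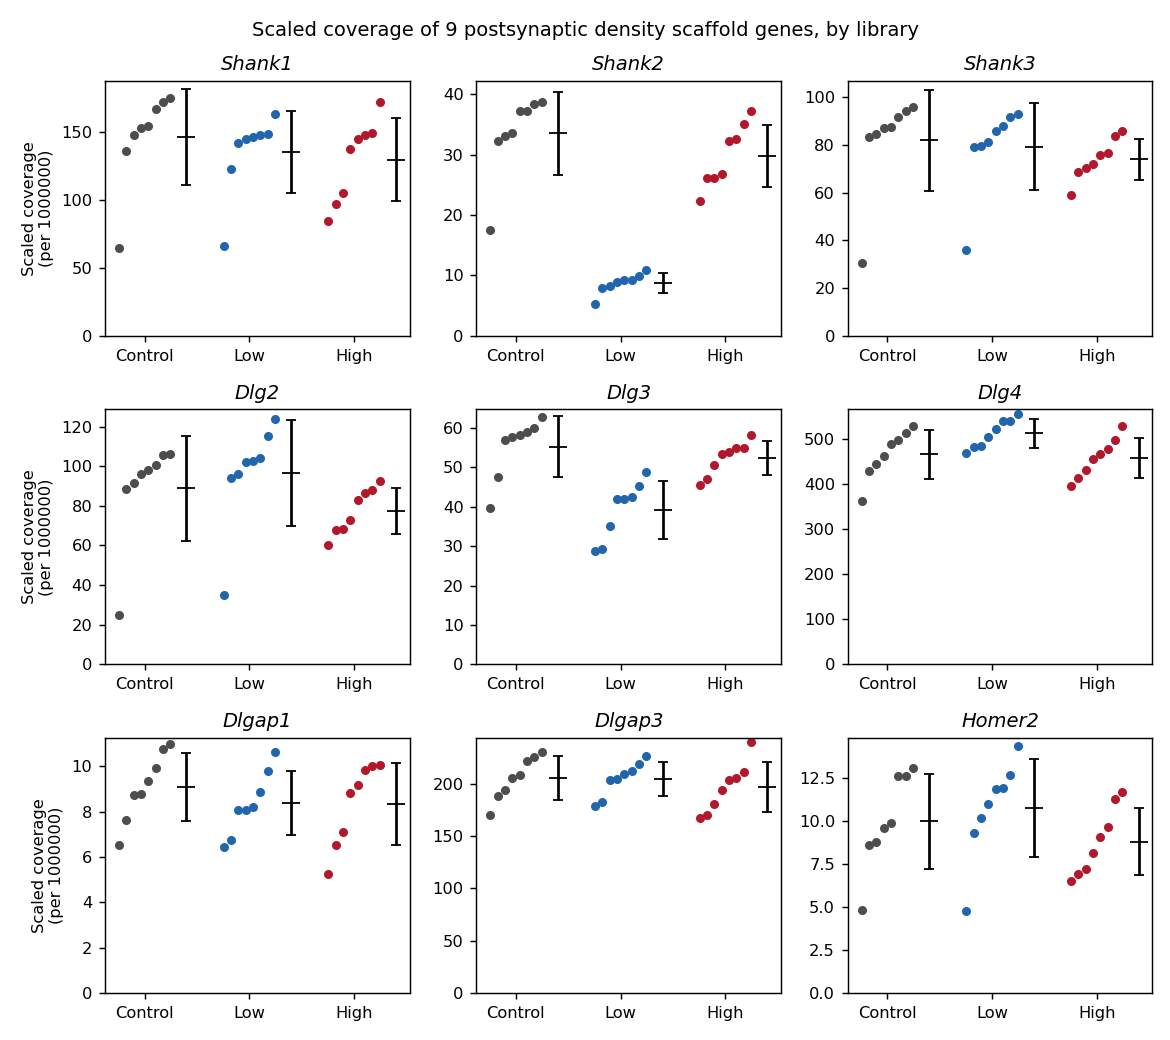
Scaled coverage (coverage divided by the library's reference sum, times 1000000; y axis from 0) of the 9 scaffold genes in Control, Low and High. Each point is 1 library, sorted by value within its group, and the bar beside each group is the mean with the SD over 8 libraries. Shank2 is the gene whose Low libraries (5.23 to 11.0) lie below every library of the other groups, and 1 Control and 1 Low library lie far below their groups for Shank1, Shank3 and Dlg2.

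A pair of libraries stood apart before any comparison was made. In Control library 49 all 9 genes had their lowest Control value, whereas 49.4% of the 15644 tested genes did. In Low library 57, 7 of the 9 genes, all but Dlg3 and Dlgap3, had their lowest Low value, against 36.6% of the tested genes. Dlg2 was at 25.1 in library 49, where the other Control libraries lay between 88.6 and 106, and at 35.0 in library 57, where the other Low libraries lay between 94.2 and 124. Shank3 was at 30.6 in library 49 against 83.4 to 95.9, and at 36.1 in library 57 against 79.0 to 92.9. The drop in these libraries was uneven. Dlg4 was at 362 in library 49 against 430 or more, and Dlgap3 at 170 against 188 or more.

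The same libraries were low for genes that span a long stretch of the genome. Over the 20% of tested genes with the longest span (59676 bases or more), the median log2 deviation from the 24-library median was -0.52 in library 49 and -0.29 in library 57, and lay between -0.15 and 0.13 in the other Control libraries, between -0.07 and 0.21 in the other Low libraries and between -0.22 and 0.04 in High. In High 7 of 8 libraries were below 0, with a median of -0.11, and libraries 72 and 65 were the lowest at -0.22 and -0.19. Part of this held for all tested genes, whose median deviation was -0.24 in library 49 and -0.07 in library 57. In the High libraries it lay between -0.14 and 0.04. Of the 9 genes, Shank2, Shank3, Dlg2, Dlgap1 and Homer2 belong to that set, with spans of 442, 60.4, 717, 572 and 92.3 kb. Among the 9 genes the size of the drop did not go strictly with span. In libraries 49 and 57 the deviation was -1.85 and -1.39 for Dlg2, and -0.38 and -0.39 for Dlgap1. It was -1.17 and -1.14 for Shank1, which at 47.2 kb lies outside the set. Libraries 56 to 62 differed in another way, with 11507 to 17631 of scaled coverage on mitochondrial genes of the minus strand against 4759 to 7116 in the remaining libraries. These 7 libraries hold 1 Control and 6 Low libraries and none from High. The part of either pattern in the results was not tested beyond the values given with and without these libraries.

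**Figure D2:**
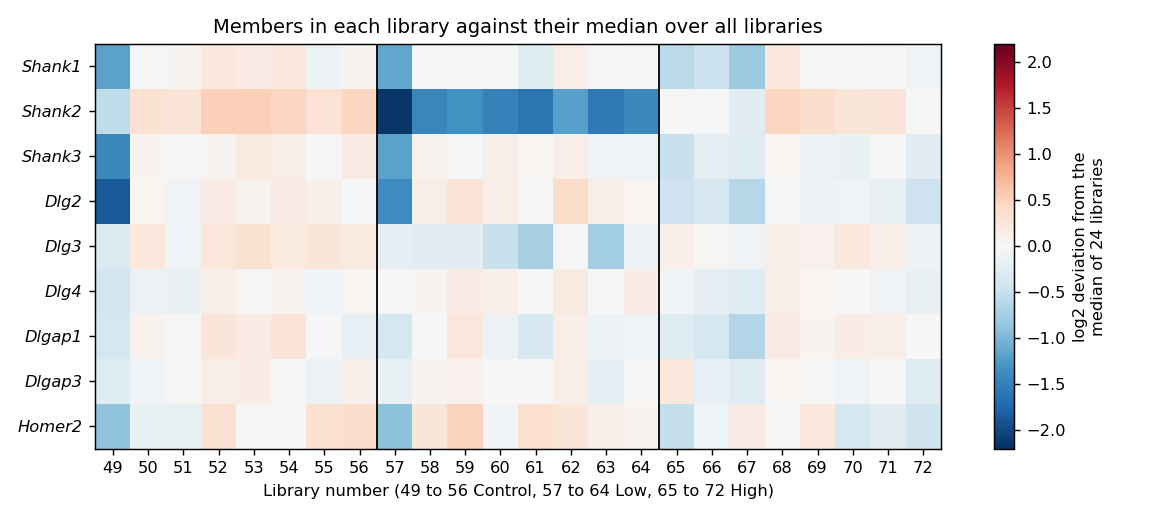
Log2 deviation of each scaffold gene (rows) in each library (columns) from its median over the 24 libraries, on log2(scaled coverage + 1), with red above and blue below the median. The columns of libraries 49 and 57 are blue in nearly every row, and the Shank2 row is blue through the 8 Low libraries.

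The first comparison asked whether the scaffold genes differed after the low concentration. By limma on log2(scaled coverage + 1), 2 of the 9 genes passed an adjusted p of 0.05 in Low versus Control, and both were lower. Of all tested genes 4.88% were called lower in this comparison, 764 of 15644. The median log2 fold change was -0.03 over the 9 genes and 0.06 over all tested genes. The mean of Shank2 was 33.5 ± 6.90 in the Control libraries and 8.72 ± 1.68 in the Low libraries (SD, n = 8 each). The mean of Dlg3 was 55.3 ± 7.73 in the Control libraries and 39.2 ± 7.33 in the Low libraries (SD, n = 8 each). The other 7 genes had log2 fold changes between -0.11 and 0.15 and did not pass.

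High versus Control gave no call. None of the 9 genes passed by limma, where 0% of the 15644 genes were called in either direction, and none of the 9 had an unadjusted p under 0.05. An exact Wilcoxon rank-sum test called 0 of the 9 after adjustment and gave 2 an unadjusted p under 0.05. The log2 fold changes of the 9 genes lay between -0.15 and -0.02, with a median of -0.11 beside -0.03 over all genes. These signs depended on the scaling. Without any scaling all 9 were above 0 with a median of 0.07, in a setting where the median over all genes stood at 0.14.

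Low and High were also compared directly, with the same limit that the Low group and the making of its tables cannot be told apart. The same pair of genes passed, 2 of 9, both lower in Low, where 6.39% of the tested genes were called lower. The log2 fold change was -1.67 ± 0.143 (SE) for Shank2 with an adjusted p of 2.09e-09 by limma, and -0.42 ± 0.104 (SE) for Dlg3 with an adjusted p of 0.00818. The 3 comparisons share their samples pairwise, so the call against Control and the call against High both rest on the Low libraries.

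**Figure D3:**
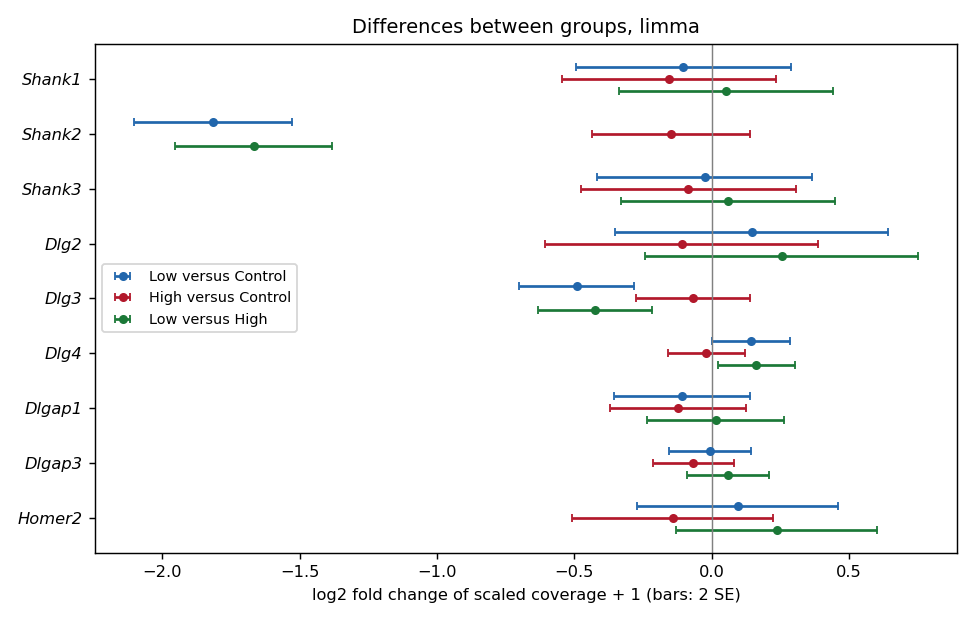
Log2 fold changes of the 9 scaffold genes on log2(scaled coverage + 1) from limma, for Low versus Control (blue), High versus Control (red) and Low versus High (green), with bars of 2 SE. Shank2 lies at -1.82 and -1.67 and Dlg3 at -0.49 and -0.42 in the comparisons that involve Low, while every bar of High versus Control crosses 0.

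Shank proteins are the deep layer of the density, large scaffolds with ankyrin repeats, a PDZ domain and a proline-rich stretch that Homer and cortactin bind. Shank2 (ENSRNOG00000050206) lies on the plus strand of chromosome 1 from 217151166 to 217592763 in the positions of the tables. Its scaled coverage was 17.6 at the lowest, 35.4 at the median and 38.7 at the highest Control library. In Low the lowest, median and highest were 5.23, 9.04 and 11.0, and in High they were 22.4, 29.5 and 37.2. Every Low library was thus below every Control and every High library, a pattern seen against Control in 1.44% of tested genes. The log2 fold change in Low versus Control was -1.82 ± 0.143 (SE), a 3.52-fold decrease, with an adjusted p of 3.68e-10. It was -1.85 without libraries 49 and 57 and -1.76 without libraries 56 to 62, and passed in both. All Low values here come from tables without assembled loci. In High versus Control it was -0.15 ± 0.143 (SE) with an adjusted p of 0.999.

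The same Shank2 values can be given as a share of the Shank family in each library, which is no separate support for the drop. Shank2 made up 11.96 to 15.6% of the summed scaled coverage of Shank1, Shank2 and Shank3 in Control, 11.2 to 14.6% in High and 3.55 to 4.87% in Low. On the FPKM column the shares were 9.71 to 15.45% in Control, 8.57 to 20.4% in High and 3.74 to 4.65% in Low. The Low shares lay below all others on either column, but the level of Shank2 on scaled FPKM overlapped between the groups, at 9.48 to 22.9 in Low, 19.3 to 42.0 in Control and 22.1 to 60.4 in High. Shank3, which enters the same sum, had medians of 194 in Low and 92.3 in Control on that column. Within Low, library 57 again had the lowest Shank2 level, and the remaining 7 libraries lay between 8.02 and 11.0.

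Shank1 (ENSRNOG00000019207, chromosome 1, plus strand, 100297152 to 100344377), the most abundant family member here, had a lowest, median and highest scaled coverage of 64.7, 153 and 175 in Control, with 84.3, 141 and 172 in High and 66.1, 145 and 163 in Low. The groups overlapped almost entirely. Its log2 fold change was -0.10 ± 0.195 (SE) in Low and -0.15 ± 0.195 (SE) in High versus Control, with adjusted p of 0.815 and 0.999 by limma. Shank3 (ENSRNOG00000052296, chromosome 7, plus strand, 130474279 to 130534679), the gene deleted in Phelan-McDermid syndrome, ran from 30.6 through 87.2 to 95.9 in Control, from 36.1 through 83.5 to 92.9 in Low and from 59.0 through 73.9 to 85.6 in High. Its log2 fold change was -0.03 ± 0.195 (SE) in Low versus Control, adjusted p 0.960, and -0.08 ± 0.195 (SE) in High versus Control. Without libraries 49 and 57 the value in High versus Control was -0.27 ± 0.065 (SE) and passed, with an adjusted p of 0.0267 by limma. These libraries were left out after their low Shank3 values had been seen, so this pass is not an independent test.

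Dlg proteins are the membrane-near scaffolds with PDZ, SH3 and guanylate kinase domains. Dlg3 (SAP102; ENSRNOG00000002767, chromosome X, plus strand, 70596576 to 70648532), known to dominate at young synapses, had a lowest, median and highest scaled coverage of 39.6, 58.0 and 62.9 in Control. The values in Low were 28.8, 42.0 and 48.7, and those in High were 45.6, 53.7 and 58.3. The groups overlapped. Of the 8 Low libraries, 3 lay below the lowest Control library and 7 below the lowest High library. The log2 fold change in Low versus Control was -0.49 ± 0.104 (SE), adjusted p 0.00345 by limma, and in High versus Control -0.07 ± 0.104 (SE), adjusted p 0.999. Within Low, libraries 61 and 63 were the lowest, at 29.4 and 28.8.

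The call for Dlg3 was less stable than that for Shank2. By the exact Wilcoxon rank-sum test its adjusted p was 0.106 in Low versus Control and 0.0169 in Low versus High. Without libraries 56 to 62, which left 2 Low libraries, the log2 fold change was -0.58 with an adjusted p of 0.0964 by limma against Control and -0.52 with an adjusted p of 0.153 against High. Leaving out any single library kept both calls, with log2 fold changes between -0.56 and -0.43 in Low versus Control and between -0.47 and -0.37 in Low versus High. With the FPKM column as deposited, Dlg3 was instead called higher in Low in both comparisons. The median log2 fold changes over all tested genes were then 0.51 and 0.49.

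Dlg4 (PSD-95; ENSRNOG00000018526, chromosome 10, plus strand, 56627411 to 56653599), the major scaffold of mature excitatory synapses, ran from 362 through 476 to 528 in Control, from 470 through 513 to 556 in Low and from 396 through 461 to 530 in High. Its log2 fold change of 0.14 ± 0.071 (SE) in Low versus Control had an adjusted p of 0.277 by limma, and that of -0.02 ± 0.071 (SE) in High versus Control one of 0.999. Dlg2 (PSD-93; ENSRNOG00000022635, chromosome 1, plus strand, 156552328 to 157269747) ran from 25.1 through 97.0 to 106 in Control, from 35.0 through 102 to 124 in Low and from 60.2 through 77.8 to 92.6 in High. Its log2 fold change was 0.15 ± 0.249 (SE) in Low and -0.11 ± 0.249 (SE) in High versus Control, with adjusted p of 0.789 and 0.999. Among the Dlg genes followed here, Dlg4 made up 74.2 to 84.8% of the summed scaled coverage in Control, with 76.6 to 79.2% in High and 76.3 to 85.8% in Low. The share of Dlg3 was 8.40 to 9.73% in Control, 8.13 to 9.40% in High and 4.69 to 7.77% in Low, so its Low values lay below all others on this measure. On the FPKM column the shares overlapped, at 10.9 to 14.3% in Control, 11.3 to 14.3% in High and 8.36 to 12.7% in Low.

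Dlgap proteins (SAPAPs) join the Dlg layer to the Shank layer. Dlgap3 (ENSRNOG00000014302, chromosome 5, plus strand, 145257714 to 145304536), whose loss gives mice compulsive grooming, had a lowest, median and highest scaled coverage of 170, 207 and 231 in Control, with 168, 199 and 240 in High and 178, 207 and 226 in Low. Its log2 fold changes were the smallest of the 9 genes in Low versus Control, below 0.01 in size with an SE of 0.075, and -0.07 ± 0.075 (SE) in High versus Control. Dlgap1 (ENSRNOG00000016196, chromosome 9, plus strand, 118586179 to 119158196) ran from 6.52 through 9.07 to 11.0 in Control, from 6.46 through 8.14 to 10.7 in Low and from 5.25 through 9.0 to 10.1 in High. Its log2 fold changes of -0.11 ± 0.124 (SE) in Low and -0.12 ± 0.124 (SE) in High versus Control did not pass, with adjusted p of 0.677 and 0.999 by limma. Homer2 (ENSRNOG00000061450, chromosome 1, minus strand, 143443300 to 143535583), an adaptor that tetramerises through its coiled coil and binds Shank and group I metabotropic glutamate receptors, ran from 4.804 through 9.71 to 13.0 in Control, from 4.75 through 11.4 to 14.3 in Low and from 6.51 through 8.58 to 11.7 in High. Its log2 fold changes of 0.10 ± 0.183 (SE) and -0.14 ± 0.183 (SE) against Control had adjusted p of 0.815 and 0.999.

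When libraries 49 and 57 were left out, a choice made after the values of these genes in them had been seen, the High group was read differently. Of the 9 genes, 2 then passed in High versus Control, both lower, where 2.45% of tested genes were called lower. They were Shank3, with the value given above, and Dlg2 at -0.35 ± 0.082 (SE), adjusted p 0.0254 by limma. Both belong to the genes with the longest span, whose median deviation was -0.11 in High and 0.06 in Control without library 49; its part in these calls was not tested. All 9 genes were below 0, with a median of -0.27 beside -0.07 over all genes. Other lists lay below 0 as well, with 24 of 30 partner identifiers (median -0.19), 7 of 7 markers of cortical excitatory neurons (median -0.29) and 42 of 45 markers of all cell types (median -0.16). These signs did not come with leaving the libraries out. Over all 24 libraries the numbers below 0 were 9 of 9 scaffold genes, 23 of 30, 7 of 7 and 42 of 45. Leaving out library 49 or 57 alone gave no call in High versus Control. In Low versus High, 6 of the 9 then passed. Dlg2 (0.45), Dlg4 (0.18), Homer2 (0.38) and Shank3 (0.21) were higher in Low, where 21.4% of tested genes were called higher, and Shank2 (-1.58) and Dlg3 (-0.44) were lower. Low versus Control still gave the calls of Shank2 and Dlg3, at -1.85 and -0.58, and no other.

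The tables hold a further readout of each gene in their FPKM column, and its ratio to coverage differed between the groups for some scaffold genes and not for others. The ratio was divided by the most common ratio of the library, so that a value of 1 marks a gene whose FPKM is that common multiple of its coverage. For Dlg2, Dlgap3 and Homer2 the relative ratio was 1 when rounded to 2 decimals in every library, as it was for 62.4% of tested genes with a value in all libraries. For 5 of the 9 genes, namely Shank1, Shank2, Shank3, Dlg3 and Dlg4, every Low library lay above every Control and High library, a pattern found in 13.1% of the 14816 genes. The relative ratio of Shank3 was 2.44 to 2.96 in Low against 1.06 to 1.41 in Control and 1.06 to 1.48 in High. That of Shank2 was 1.95 to 2.57 in Low against 1.06 to 1.20 in Control and 1.04 to 1.83 in High.

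The remaining ratios differed less or overlapped. For Shank1 they were 1.83 to 1.89 in Low, 1.09 to 1.61 in Control and 1.03 to 1.78 in High. For Dlg3 they were 1.82 to 1.96 in Low, 1.35 to 1.71 in Control and 1.49 to 1.71 in High. Dlg4 stood between 1.02 and 1.07 in all libraries. Dlgap1 had ratios far above 1, 18.1 to 18.8 in Low, 7.27 to 18.4 in Control and 6.83 to 16.4 in High. High and Control overlapped for each of these genes, and the spread was narrow in Low and wide in the other groups for Shank1 and Dlgap1.

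**Figure D4:**
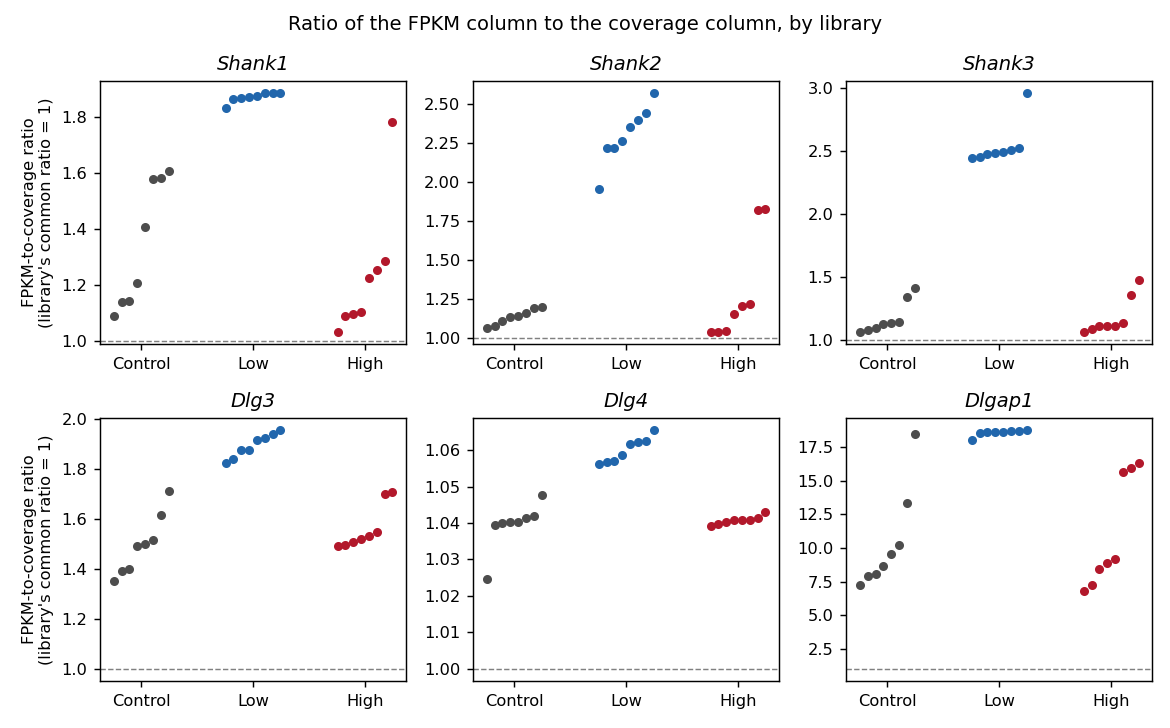
Ratio of the FPKM column to the coverage column for the 6 scaffold genes in which it departs from 1, relative to the library's most common ratio (dashed line at 1); the y axes differ and do not start at 0. Each point is 1 library, sorted by value within its group. The 8 Low libraries of Shank1, Shank2, Shank3, Dlg3 and Dlg4 lie above all Control and High libraries, and those of Dlgap1 overlap with Control.

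The choice of column changed several calls. With FPKM scaled by the library's reference sum of FPKM in place of scaled coverage, 3 of the 9 genes passed in Low versus Control, with 5.66% of tested genes called higher and 5.62% called lower. Shank2 was lower by both columns, at -0.91 ± 0.197 (SE) on FPKM with an adjusted p of 0.00221 by limma. Shank3 was higher on FPKM, at 1.05 ± 0.167 (SE) with an adjusted p of 5.35e-05, and so was Dlgap1, at 0.74 ± 0.164 (SE) with an adjusted p of 0.00256. Dlg3 no longer passed, at -0.19 ± 0.105 (SE) with an adjusted p of 0.327. In Low versus High 3 of the 9 passed on scaled FPKM, Shank3 (1.13) and Dlgap1 (0.81) higher and Shank2 (-0.91) lower, with 9.45% of tested genes called higher and 6.83% called lower. For Dlg2, Dlgap3 and Homer2 the columns gave nearly the same values. In Low versus Control only the decrease of Shank2 was called with both columns.

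**Figure D5:**
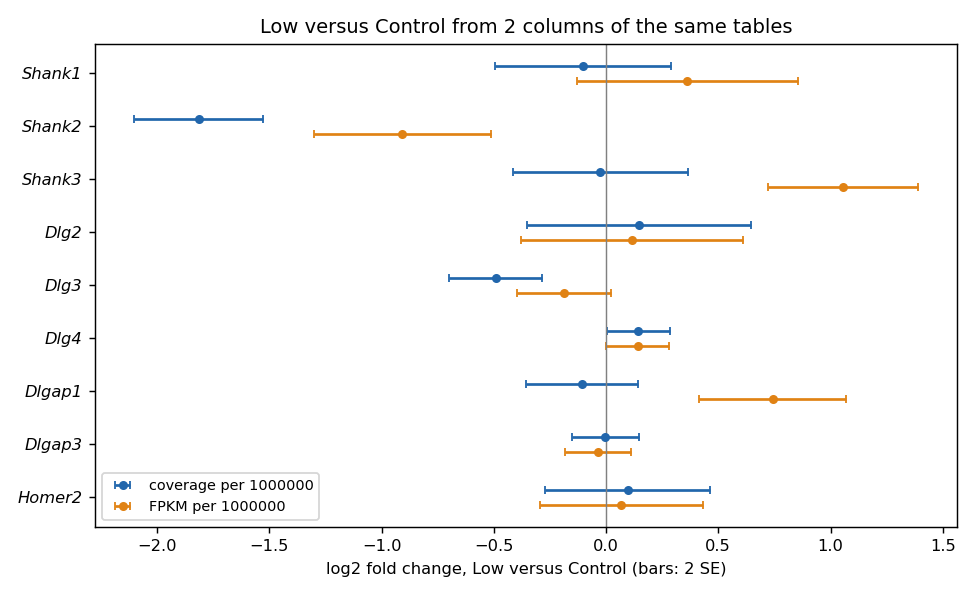
Log2 fold changes in Low versus Control from scaled coverage (blue) and from FPKM scaled by its reference sum (orange), with bars of 2 SE. The columns give nearly the same values for Dlg2, Dlg4, Dlgap3 and Homer2, and differ for Shank3 (-0.03 and 1.05), Dlgap1 (-0.11 and 0.74) and Shank2 (-1.82 and -0.91).

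Few annotated genes overlap these loci. Inside Shank1, on its strand, lies AABR07003250.6 (chromosome 1, 100320372 to 100320853), with group medians of 10.2 to 10.4. Inside Shank2, on its strand, lie a 5S_rRNA and AABR07006076.1, whose group medians were at most 0.0976. A U6 gene on the other strand of Homer2 had a median of 0 in each group. The other 6 genes overlap no annotated gene. Assembled loci overlapped far more. On the same strand they covered all 9 genes in the Control and High tables, in 16 of 16 tables for each gene except Shank3, which had such a locus in 9 of 16. Their highest unscaled coverage per table had a median of 64.5 at Shank2, where the gene's own row had a median of 67.4, and of 881 at Dlg4, where the row had 967. Over the single tables the loci at Shank2 ran from 19.0 to 115. At Dlg2 and Dlgap3 the assembled loci were lower than the rows, with medians of 24.2 and 70.5 against 177 and 425. The exception was Control library 56, where locus and row were equal, at 174 for Dlg2 and 422 for Dlgap3. In Control library 56 the other strand of Dlg2 held 119 assembled loci and that of Dlgap1 held 120, against at most 3 in any other table. Library 56 held more loci on the other strand than any other table at each of the 9 genes.

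The paralogs that the rule left out did not pass on scaled coverage in any comparison over all 24 libraries. Without libraries 49 and 57, 3 of 5 passed in Low versus High, Dlg1 (0.16), Dlgap2 (0.65) and Homer1 (0.48), all higher in Low. In that setting 21.4% of all tested genes were called higher. Dlg1 (SAP97) had means of 76.1 ± 10.8 (Control), 80.1 ± 8.96 (Low) and 73.8 ± 5.36 (High), with SD over n = 8, and Homer1, the family member best known from cortex, 54.1 ± 14.2, 57.2 ± 12.3 and 45.3 ± 16.1 (SD, n = 8). Dlgap4 had means of 98.9, 100.3 and 94.4, and Dlgap2 of 21.1, 23.4 and 16.7. Homer3, at 6.64, 6.11 and 6.70, was the lowest. The relative FPKM ratio was 1 in every library for Dlgap4. For Homer3 it was 2.47 to 2.63 in Low, 1.41 to 2.01 in Control and 1.19 to 2.49 in High, so Low overlapped with High. For Homer1 the ratio was 1.26 to 1.32 in Low, above all Control and High libraries (at most 1.03). The Low ratios also lay above all others for Dlgap2, at 1.097 to 1.106 against at most 1.091. For Dlg1 they did so narrowly, at 1.05397 to 1.06116 against at most 1.05376. For both genes the highest of the other values was that of Control library 56. Elsewhere in Control and High the ratio was at most 1.008 for Dlgap2 and 1.023 for Dlg1. On scaled FPKM Homer3 was higher in Low than in Control, at 0.48 ± 0.129 (SE) with an adjusted p of 0.0126 by limma.

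Partners of the scaffolds were followed as a list of 30 genes, with 30 identifiers tested, since Lin7a was too low to test and Cttn carries a pair of near-identical identifiers whose values are uncertain. None passed by limma in Low versus Control, where 6.11% of all tested genes were called in either direction and 2 partners had an unadjusted p under 0.05 (3 by the exact Wilcoxon test, which called none), and the median log2 fold change was 0.06 over the list and 0.06 over all genes. On scaled FPKM 8 of the 30 identifiers passed in this comparison, all higher, among them both of Cttn, beside 5.66% of all tested genes called higher. None passed in High versus Control either, with 0 at an unadjusted p under 0.05 by limma and 4 by the exact Wilcoxon test, which again called none, and a median of -0.05. Without libraries 49 and 57, 3 of the 30 passed in High versus Control, all lower (2.45% of all tested genes), and in Low versus High 12 were higher (21.4% of all tested genes) and 1 lower. Over all libraries 1 of 30 passed in Low versus High, where 5.3% of all tested genes were called higher. Cnksr2, a scaffold that joins Ras signalling to the density, had means of 79.0 ± 8.92 in Low, 58.2 ± 12.5 in High and 68.2 ± 12.2 in Control (SD, n = 8), with a log2 fold change of 0.46 ± 0.131 (SE) and an adjusted p of 0.0226 by limma in Low versus High. Without libraries 56 to 62 the log2 fold change was 0.48 ± 0.230 (SE) with an adjusted p of 0.462. In Low versus Control it passed on scaled FPKM, at 0.43 with an adjusted p of 0.0314.

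Among partners that did not pass on scaled coverage, Abi2, a subunit of the WAVE complex that drives actin branching, had the lowest value in Low versus Control, at -0.67 ± 0.263 (SE), adjusted p 0.156 by limma. Its adjusted p was 0.0126 without libraries 49 and 57 and 0.0196 without library 49 alone, and its log2 fold change was -0.17 without libraries 56 to 62. Grip1, an AMPA receptor scaffold, was next at -0.09, but was higher in Low on scaled FPKM, at 1.43 ± 0.135 (SE) with an adjusted p of 8.84e-09. The highest were Kalrn at 0.25 and Arhgap32 at 0.23. On scaled FPKM Kalrn passed at 0.998 ± 0.192 (SE), adjusted p 0.000626, and Arhgap32 did not, at 0.20. In High versus Control the values ran from -0.29 for Ppp1r9a (neurabin) and -0.28 for Tanc2 to 0.06 for Dynll2 and 0.09 for Dbnl.

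The tissue label was checked against markers of cortical and other cells. Of 8 neuronal markers all were tested, and their summed scaled coverage was 2727 to 3524 in Control, with 2291 to 3481 in High and 2619 to 3732 in Low. The 7 markers of cortical excitatory neurons summed to 775 to 1141, 659 to 1117 and 378 to 1085 in the same groups (Control, Low and High), with the lowest value in High library 67. Control library 49 had the lowest Control sum for these markers and for those of astrocytes. It had the highest for choroid plexus markers, at 72.2 beside a Control median of 8.91. The part of this in its scaffold values was not tested. The 8 markers of striatal medium spiny neurons, cells of a region beneath the frontal cortex that is rich in Shank3 and Dlgap3, summed to 455 to 1062 in Control, with 222 to 1698 in High and 319 to 778 in Low. All 8 had log2 fold changes below 0 in Low versus Control (median -0.57) and in High versus Control (median -0.31), and none passed. High library 65, the highest for these striatal markers, was also the highest High library for Dlgap3, at 240. Their part in the scaffold values was not tested. Of the 50 markers of all cell types, 45 were tested. None passed by limma in Low versus Control or High versus Control, with 4 and 0 at an unadjusted p under 0.05 (8 and 2 by the exact Wilcoxon test, which called none). In Low versus High 1 of the 45 passed, the endothelial Slco1c1 at 0.30, beside 5.3% of all tested genes called higher. Without libraries 49 and 57, 6 passed in that comparison, all higher in Low, beside 21.4% of all tested genes called higher. On scaled FPKM 3 passed in Low versus Control, all higher, beside 5.66% of all tested genes called higher. Cldn5, a defining endothelial marker, was at 0 in most libraries. In bulk tissue, fewer cells of a type and less RNA per cell cannot be told apart.

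Of the other tested genes, those whose level across the 24 libraries was most like that of the summed scaffold genes included Aff3, Ppp2r2c, Sipa1l1 and Ttbk1, with Pearson r of 0.95, 0.95, 0.94 and 0.94 on the log2 scale. Without library 49 the values were 0.92, 0.91, 0.91 and 0.90 over 23 libraries. The points share library, depth and the libraries that stood apart, and the sum is weighted towards Dlg4, so these values are a description. Sipa1l1, a protein of the density that is also among the partners, had group medians of 78.7 (Control), 77.6 (Low) and 65.8 (High).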

How the data were processed

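Libraries of polyadenylated RNA were made with a stranded kit. The submitters' processing notes name FastQC, Trimmomatic, TopHat2 and StringTie, without versions, and the build mRatBN7.2. Gene ends on chromosome 1 reach 282724300 in the tables, so the build of the printed positions was not settled, and they are given as deposited. The authors deposited 1 StringTie gene table per library, with coverage (a signal, the mean depth per base), FPKM and TPM. The deposited TPM sums to 1000000 in Low only, and in Control and High, where assembled loci are listed, it was treated as a score.

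Coverage was summed per reference gene and divided by the library's reference sum times 1000000. Genes with a mean of at least 1 (15644) were tested on log2(value + 1, the pseudocount) with limma 3.58.1 in R 4.3.3 (trend and robust), two-sided, over all 24 libraries, with Benjamini-Hochberg adjustment and a threshold of 0.05. The code was tested on simulated data. Groups and library numbers came from the labels, which do not say more about replicate origin. Replicate numbers are not shared between groups. The 9 genes, the lists and the tests were chosen with earlier results of these data known. Named genes were the 9, their 5 paralogs, partners past the threshold or among the 2 highest and 2 lowest against Control, and the 5 genes most alike, except for results that are not reported here. Alternatives changed scaling, pseudocount, filter, column, test, covariate and libraries. Those that used FPKM scaled by its reference sum or left out libraries 49 and 57 or 56 to 62 were chosen after seeing the data, 49 and 57 also from the values of the 9 genes. Read counts were not used here, so no counting intervals are given.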

Additional observations from a re-analysis of the deposited data

Results flagged for a closer look

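Within a group of 8 libraries, 1 library was far from the others in 7 of the 27 sets formed by the 9 genes and 3 groups. For independent sets chance would give about 1 in 20 (1.35 of 27). The 9 genes share their libraries, so the sets are not independent and the count is a description. All 7 were low values in Control library 49 or Low library 57. In library 49 these were Shank1 at 64.7 (others 136 to 175), Shank2 at 17.6 (others 32.2 to 38.7), Shank3 at 30.6 (others 83.4 to 95.9) and Dlg2 at 25.1 (others 88.6 to 106). In library 57 they were Shank1 at 66.1 (others 122 to 163), Shank3 at 36.1 (others 79.0 to 92.9) and Dlg2 at 35.0 (others 94.2 to 124).

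Low and High differed on scaled coverage for Shank2 and Dlg3 in their direct comparison. The log2 fold change of Low minus High was -1.67 for Shank2 and -0.42 for Dlg3. A difference between the concentrations cannot be told apart here from the way the Low tables were made. In this comparison Dlg3 did not pass on scaled FPKM, and it was called higher in Low with FPKM as deposited.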

How the results depend on the processing

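Shank2 stayed lower in Low under all 38 alternatives, against Control and against High, and passed the threshold in each. The number of the 9 genes past the threshold, 2 in Low versus Control and in Low versus High and 0 in High versus Control, changed as follows; the cause was not tested. With FPKM as deposited it was 9 in either comparison with Low, where all tested genes had median values of 0.51 and 0.49. With TPM as deposited it was 4 in Low versus Control and 5 in Low versus High, with all-gene medians of 0.17 and 0.15. With FPKM scaled by its reference sum it was 3 in both. The exact Wilcoxon test gave 1 in Low versus Control, a covariate for libraries 56 to 62 gave 1 in Low versus High, and leaving those libraries out gave 1 in both. Leaving out libraries 49 and 57 gave 2 in High versus Control and 6 in Low versus High. Leaving out each library in turn gave 2, 2 and 0 throughout (range 2 to 2 and 0 to 0).

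Signs turned mostly in comparisons that did not pass in the test of all 24 libraries on scaled coverage. The exception was Dlg3 in the comparisons with Low, called lower in that test and higher with FPKM as deposited. All the followed genes passed in those comparisons with FPKM as deposited, also those whose sign turned. In Low versus Control with FPKM as deposited, the log2 fold changes became 0.90 for Shank1, 1.58 for Shank3, 0.34 for Dlg3, 1.27 for Dlgap1 and 0.50 for Dlgap3. With TPM as deposited they were 0.49 for Shank1, 1.18 for Shank3, 0.87 for Dlgap1 and 0.092 for Dlgap3. With FPKM scaled by its reference sum Shank1 was at 0.36, Shank3 at 1.05 and Dlgap1 at 0.74. Without libraries 56 to 62 Shank1 was at 0.071 and Shank3 at 0.061, and without mitochondrial genes in the scaling Dlgap3 was at 0.021. In High versus Control, no scaling gave 0.028 for Shank1, 0.031 for Shank2, 0.098 for Shank3, 0.074 for Dlg2, 0.11 for Dlg3, 0.16 for Dlg4, 0.044 for Dlgap1, 0.12 for Dlgap3 and 0.028 for Homer2. FPKM and TPM as deposited gave 0.0497 and 0.0499 for Shank2, 0.043 and 0.044 for Dlg3, and 0.031 and 0.032 for Dlg4, and scaled FPKM gave 0.0051 for Shank2. Dlg4 was at 0.018 with median-of-ratios scaling and at 0.0049 without mitochondrial genes. In Low versus High, Dlg3 was at 0.30 with FPKM as deposited. No scaling, which put the median of all genes at -0.11, gave -0.17 for Shank1, -0.16 for Shank3, -0.055 for Dlg4, -0.19 for Dlgap1 and -0.16 for Dlgap3. Median-of-ratios scaling gave -0.044 for Shank1, -0.037 for Shank3, -0.075 for Dlgap1 and -0.035 for Dlgap3. Dlgap1 and Dlgap3 were at -0.0073 and -0.017 without libraries 56 to 62, and Dlgap3 at -0.025 with the covariate.

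With single libraries left out, Low versus Control ran from -0.26 to 0.037 for Shank1, from -0.21 to 0.13 for Shank3, from -0.094 to 0.34 for Dlg2, from -0.043 to 0.023 for Dlgap3 and from -0.028 to 0.24 for Homer2. High versus Control ran from -0.0698 to 0.0103 for Dlg4, and Low versus High from -0.031 to 0.19 for Shank1 and from -0.065 to 0.059 for Dlgap1. Over the log2 fold changes of single genes, 926 of 1026 alternative values kept their sign and their side of the threshold. Of the 38 alternatives 24 only left out a single library, so much of this agreement was built in. No paired analysis was possible because the groups share no replicate numbers. The tables give read depth only as coverage.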
